A study of Homo sapiens with 3 samples.

Results

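The gene set described here holds 37 genes that act in glycolysis, in lactate handling or in the response of cells to low oxygen. They were listed by symbol and found in the deposited count table by their Ensembl gene identifiers. The rule uses no measured value, but the members were chosen with earlier results of these data known. All 37 were among the 58037 genes of the table, and all 37 passed a filter of an average of 1 CPM or more (counts scaled to a common library size), as did 16600 genes in all. By role, 23 members belong to glucose uptake, glycolysis and lactate handling, and 14 to the hypoxia response.

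RNA was sequenced from GFP-sorted bulk RWPE1 cells, an immortalized normal human prostate epithelial line, in 3 libraries with 1 per group. The groups are OLFM4-wild, OLFM4-knockout and one that is labelled OLFM4-active. The knockout cells were made with CRISPR/Cas9 double-nickase plasmids directed at OLFM4, which encodes the secreted glycoprotein olfactomedin 4, and the study's methods state that activation plasmids were used in making the OLFM4-wild GFP reporter cells. All 3 groups therefore derive from 1 parental line, and no replicate culture, oxygen level or glucose level is given for any of them. The group labels do not say which library came from cells that received activation plasmids. The folds below compare libraries, not conditions, and no test of a condition was possible.

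Glycolysis splits glucose into pyruvate, which lactate dehydrogenase can reduce to lactate for export by monocarboxylate transporters or which pyruvate dehydrogenase can pass to the mitochondria. Hypoxia-inducible factors (HIFs) are transcription factors whose alpha subunits are hydroxylated by the EGLN prolyl hydroxylases when oxygen is present, bound by VHL and degraded. When oxygen is low the alpha subunit persists, pairs with ARNT and binds hypoxia response elements with the core letters ACGTG or GCGTG at genes for glycolysis, pH control, vessel growth and oxygen sensing itself.

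Because members of the set are textbook targets of these factors, promoter letters are shown for the 4 members that differed most between the OLFM4-knockout and OLFM4-wild libraries. The 250 bases before each start site come from RefSeq on GRCh38.p14, written 5′ to 3′ on the strand of the gene, and capitals mark ACGTG or GCGTG on either strand (CACGT or CACGC when read on the strand shown). CA9 lies at chr9:35673678-35673927 (plus strand), ENO2 at chr12:6914330-6914579 (plus), ADM at chr11:10304823-10305072 (plus) and EGLN3 at chr14:33951075-33951324 (minus).
CA9: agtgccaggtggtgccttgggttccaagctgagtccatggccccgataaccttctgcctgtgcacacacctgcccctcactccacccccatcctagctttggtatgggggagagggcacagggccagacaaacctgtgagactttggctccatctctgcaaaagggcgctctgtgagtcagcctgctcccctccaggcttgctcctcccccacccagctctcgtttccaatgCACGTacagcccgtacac
ENO2: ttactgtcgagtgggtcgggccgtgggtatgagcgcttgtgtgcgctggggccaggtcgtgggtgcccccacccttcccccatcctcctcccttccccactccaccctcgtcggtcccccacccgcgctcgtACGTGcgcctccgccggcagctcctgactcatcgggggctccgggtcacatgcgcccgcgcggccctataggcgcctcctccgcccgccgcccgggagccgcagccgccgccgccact
ADM: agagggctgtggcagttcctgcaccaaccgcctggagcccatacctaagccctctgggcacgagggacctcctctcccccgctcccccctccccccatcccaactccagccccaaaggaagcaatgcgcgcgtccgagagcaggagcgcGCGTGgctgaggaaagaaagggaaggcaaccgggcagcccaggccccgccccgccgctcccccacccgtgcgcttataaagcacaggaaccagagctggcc
EGLN3: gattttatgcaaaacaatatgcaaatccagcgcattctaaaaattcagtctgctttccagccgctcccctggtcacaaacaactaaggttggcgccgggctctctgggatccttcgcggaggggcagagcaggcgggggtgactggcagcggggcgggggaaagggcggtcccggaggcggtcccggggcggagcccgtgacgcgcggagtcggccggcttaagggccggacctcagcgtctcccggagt

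CA9, ENO2 and ADM each held 1 such match in the full window of 300 bases (250 before to 50 after the start), and EGLN3 held none. The first base of the match stood at position -18 from the start in CA9, at -118 in ENO2 and at -101 in ADM. A window was matched for 33 of the 37 members, not for SLC16A1, VEGFA, NDRG1 and BNIP3L. At least 1 of the 2 cores occurred in 27 of the 33 member windows (81.8%), against 48.4% of 34943 windows in the whole table. Each member had 1 window, the one nearest its canonical start, whereas the whole table counts every distinct window. The shares here are therefore of unlike sets, and the members were listed as known hypoxia or glycolysis genes. ACGTG alone was found in 16 member windows (48.5%, against 21.4% of all windows) and GCGTG in 16 (48.5%, against 36.5%). The E-box CACGTG, which overlaps ACGTG and is also bound by MYC and its relatives, was found in 6 member windows (18.2%, against 7.23%), those of PFKFB3, ALDOC, GAPDH, LDHA, BNIP3 and ANKRD37. A match describes letters and is not evidence of binding.

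The libraries held 16309906 counts (OLFM4-wild), 58837147 (OLFM4-knockout) and 23224216 (labelled OLFM4-active), so that 3 counts, taken as the floor, amounted to between 0.0584 and 0.165 CPM. OLFM4 itself was at 11.8 CPM in OLFM4-wild cells, 2.55 in knockout cells and 0.670 in those labelled active, which goes against that label. All 6 basal epithelial markers lay above the floor in every library, and their summed level was 18139, 40149 and 21630 CPM in the order wild, knockout, labelled active. The 4 leukocyte markers summed to at most 0.0390 CPM, the 4 endothelial markers to at most 0.826 CPM, and the luminal marker KLK3 was at 0 counts in 2 of the 3 libraries. Fibroblast and muscle markers (6 genes) summed to between 34.7 and 55.3 CPM and neuroendocrine markers (3 genes) to between 0.440 and 0.921 CPM. MYC, the transcription factor the study turns on, was at 274, 510.3 and 486 CPM. In bulk RNA, fewer cells expressing a gene and less of its RNA per cell cannot be told apart.

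The members together took 1.24% of all counts in OLFM4-wild, 1.28% in knockout and 1.06% in the library labelled active. None was at or under the floor, and the lowest counts were the 19 counts of EGLN3 in both the knockout library and the library labelled active. Per kilobase of canonical transcript, GAPDH was the highest member, at 2017 CPM per kb in the OLFM4-wild library, 3235 in the knockout library and 2225 in the library labelled active, ranking 11th, 7th and 7th among 19629 protein-coding genes. ENO1 (688 CPM per kb), PKM (616), ALDOA (454), NDRG1 (363.5) and LDHA (292) came next in the OLFM4-wild library. The lowest in that library were ENO2 (5.59 CPM per kb), PFKFB4 (1.87) and PDK1, a kinase that switches off pyruvate dehydrogenase (1.65). EGLN3 was at 7.24 CPM per kb in OLFM4-wild but at 0.137 in knockout and 0.294 in the library labelled active, the lowest of all members in both.

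**Figure D1:**
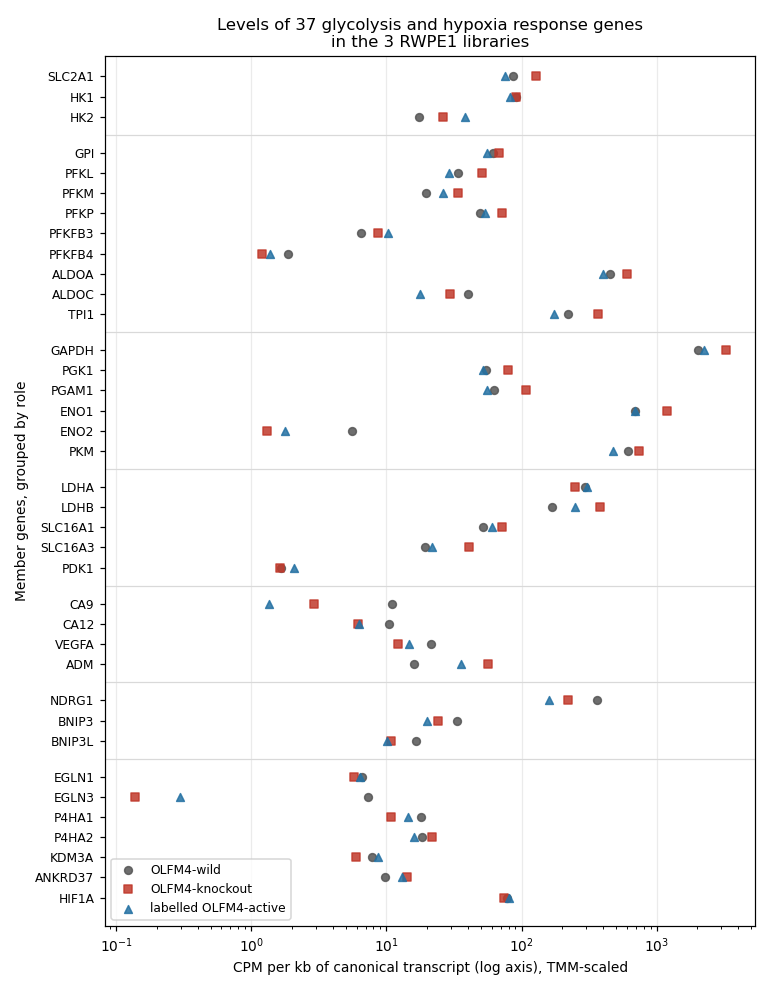
Level of each of the 37 members in the 3 libraries, in TMM-scaled CPM per kb of canonical transcript on a log axis, with members ordered by role and 1 point per library. Most members sit within a 2-fold band across libraries, while for EGLN3, CA9 and ENO2 the OLFM4-wild point stands well to the right of the others.

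Levels are given as CPM scaled by the trimmed mean of M values (TMM), and differences as log2 fold changes with 95% exact conditional intervals, which cover counting error only and not the spread between cultures. A direction is given for a member only where TMM, library totals, DESeq2 size factors and upper-quartile scaling gave the same sign, or else with both values. Moving from library totals to TMM raised every log2 fold change by 0.35 in the knockout against wild comparison, by 0.11 in the labelled-active against wild comparison and by 0.24 in the knockout against labelled-active comparison. The first and second comparisons share the OLFM4-wild library, so their values are set side by side and their likeness is not a result.

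In the OLFM4-knockout library most glycolytic enzymes were higher than in the OLFM4-wild library, and most hypoxia-response members were lower. Of the 23 glycolysis and lactate members, 15 were higher under all 4 scalings (65.2%) and 5 were lower, with a median log2 fold change of 0.54. Of the 14 hypoxia-response members, 2 were higher and 11 lower under all 4 scalings (78.6% lower), with a median of -0.54. Over all 16600 genes tested, 32.5% were higher and 42.6% lower under all 4 scalings, with a median of 0.10 (-0.26 with library totals). Over all 37 members the counts were 17 higher and 16 lower, with a median of 0.26 that became -0.10 with library totals. Past 2-fold, 3 members were higher (LDHB, SLC16A3 and ADM) and 3 lower (ENO2, CA9 and EGLN3), beside 5.77% of all genes higher and 7.56% lower. The 3 lower members averaged 6.65, 7.85 and 6.92 CPM, and EGLN3 passed the filter of 1 CPM through OLFM4-wild alone. The share of all genes depended on level. Among genes averaging 10 CPM or more, 4.71% were past 2-fold higher and 2.93% lower. With library totals 1 member was past 2-fold higher and 7 lower, beside 2.18% and 14.1% of all genes. The summed level of the basal markers given above also differed in the knockout library. KRT5, KRT14, KRT15, ITGA6 and LAMB3 were higher than wild with TMM and with library totals, while the sign of TP63 followed the scaling (0.19 and -0.16). The part of the basal markers in the member values was not tested.

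In the library labelled OLFM4-active the glycolytic members lay on both sides of OLFM4-wild, and the hypoxia-response members were again mostly below it. Of the 23 glycolysis and lactate members, 9 were higher and 12 lower than in OLFM4-wild under all 4 scalings, with a median log2 fold change of -0.08. Of the 14 hypoxia-response members, 3 were higher and 10 lower, with a median of -0.42. Over all genes tested, 44.1% were higher and 44.3% lower, with a median of 0.05. Past 2-fold, 2 of the 37 members were higher (HK2 and ADM), beside 3.78% of all genes, and 5 were lower (ALDOC, ENO2, CA9, NDRG1 and EGLN3), which is 13.5% of the members beside 6.73% of all genes. Of these 5, ALDOC and NDRG1 averaged more than 10 CPM and the others less. Among genes averaging 10 CPM or more, 2.35% were past 2-fold higher and 2.49% lower.

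The OLFM4-knockout library set against the library labelled OLFM4-active gave 21 members higher and 13 lower under all 4 scalings, against 36.6% and 43.3% of all genes. Past 2-fold, TPI1 and CA9 were higher in the knockout library (2 members, beside 2.95% of all genes) and EGLN3 was lower (1 member, beside 3.39%). The glycolysis and lactate members had a median of 0.54 in this comparison and the hypoxia-response members a median of 0.04. Over all genes tested the median was 0.08 (-0.16 with library totals). The hypoxia-response median is smaller than the 0.24 that TMM adds to library totals, so its sign followed the scaling. Under all 4 scalings, 16 of the 23 glycolysis and lactate members were higher and 6 lower. Of the 14 hypoxia-response members, 5 were higher and 7 lower.

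**Figure D2:**
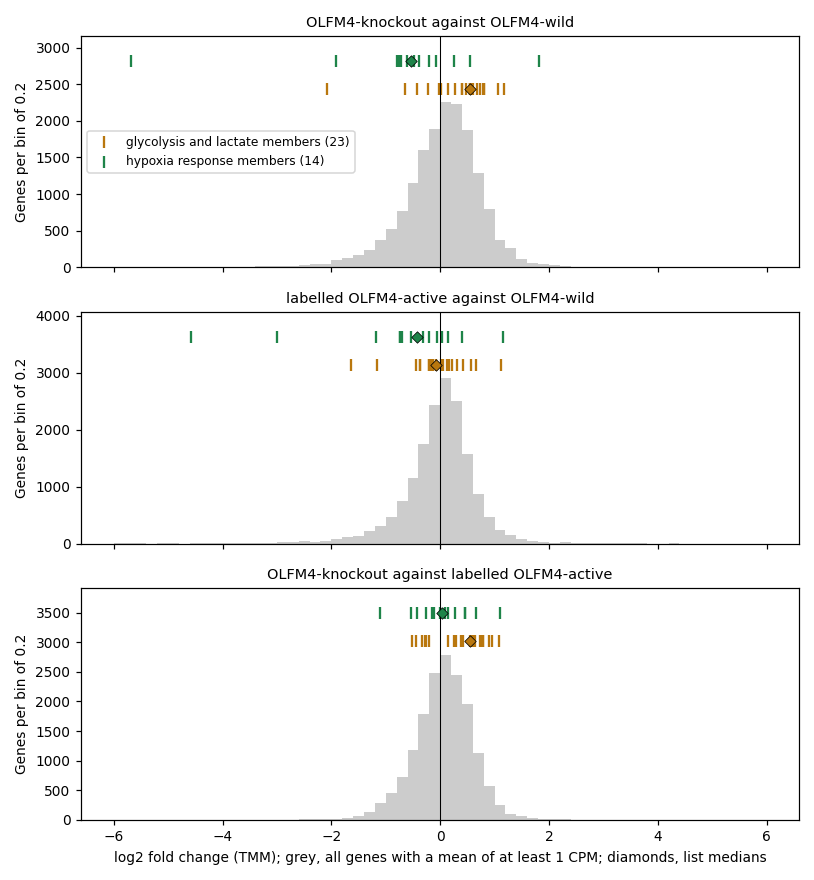
Distribution of log2 fold changes over the 16600 genes that averaged 1 CPM or more (number of genes per bin), with a tick for each member, in 3 panels for the 3 comparisons between libraries, diamonds marking the medians of the glycolysis and lactate members and of the hypoxia-response members. EGLN3 at -5.69 and -4.59 lies in the far left tail in both comparisons with OLFM4-wild, and ADM at 1.82 and 1.15 lies to the right.

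Glucose enters epithelial cells mainly through the transporter SLC2A1 (GLUT1) and is trapped by hexokinase. SLC2A1 was at 294 CPM in the OLFM4-wild library, 429.9 in the knockout library and 254 in the library labelled active. Its highest level was that in knockout, with a log2 fold change of 0.55 (0.50 to 0.59; 0.19 with library totals), while that of the library labelled active was -0.21 (-0.26 to -0.16). Hexokinase 1 (HK1), the housekeeping form, was at 326, 328 and 296 CPM. It was nearly level between knockout and wild with TMM (0.01, interval -0.04 to 0.05) and below wild with library totals (-0.35).

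Hexokinase 2 (HK2; chr2:74834127-74893359, plus strand of GRCh38), the inducible form, was at 97.8 CPM in the OLFM4-wild library, 148 in the knockout library and 213 in the library labelled active. OLFM4-wild was the lowest and the library labelled active the highest. The log2 fold change against wild was 0.60 (0.52 to 0.67) in the knockout library and 1.12 (1.04 to 1.20) in the library labelled active. Of the summed counts of both hexokinases, HK1 took 76.9% in OLFM4-wild (95% Clopper-Pearson interval 76.0 to 77.9), 68.9% in the knockout library (68.3 to 69.5) and 58.2% in the library labelled active (57.3 to 59.1). Such a share lies within 1 library and does not depend on scaling, and the intervals of the 3 libraries did not overlap. Intervals of shares likewise cover counting error only, not the spread between cultures.

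The upper part of glycolysis turns glucose 6-phosphate into triose phosphates. Glucose-6-phosphate isomerase (GPI) was at 253, 281 and 229 CPM, with a difference between knockout and wild whose sign followed the scaling (0.15 with TMM, -0.20 with totals). Phosphofructokinase, the committed step, has liver (PFKL), muscle (PFKM) and platelet (PFKP) subunits, and all 3 were higher in the knockout library than in OLFM4-wild under all 4 scalings. PFKL was at 98.1, 147 and 84.8 CPM in the order wild, knockout, labelled active. PFKM was at 60.5, 105 and 80.7 CPM, and PFKP at 129, 189 and 141 CPM. The log2 fold changes in the knockout library were 0.59 for PFKL, 0.80 for PFKM and 0.55 for PFKP, and in the library labelled active -0.21, 0.41 and 0.13. PFKM took 21.0% of the counts of the trio in the OLFM4-wild library, 23.8% in the knockout library and 26.3% in the library labelled active. PFKL took 34.1%, 33.3% and 27.7%, and PFKP 44.9%, 42.9% and 46.0%.

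PFKFB3 and PFKFB4 make and break fructose 2,6-bisphosphate, the activator of phosphofructokinase, and lay apart in these libraries. PFKFB3 was at 29.3 CPM in the OLFM4-wild library, 38.7 in the knockout library and 46.4 in the library labelled active. PFKFB4 was at 6.55, 4.21 and 4.81 CPM, so that OLFM4-wild was its highest library and the lowest for PFKFB3. The log2 fold changes of PFKFB3 were 0.40 (0.26 to 0.54) and 0.66 (0.51 to 0.82), and those of PFKFB4 -0.64 (-0.97 to -0.30) and -0.44 (-0.83 to -0.06). With library totals PFKFB3 was at 0.05 and 0.55, and its interval in the knockout library did not stay above 0 under all 4 scalings. PFKFB4 took 18.3% of the counts of the pair in OLFM4-wild (15.4 to 21.5), 9.81% in the knockout library (8.60 to 11.1) and 9.40% in the library labelled active (7.83 to 11.2).

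Aldolase A (ALDOA), the main form outside liver and brain, was at 745 CPM in the OLFM4-wild library, 982 in the knockout library and 656 in the library labelled active. Aldolase C (ALDOC; chr17:28573115-28576948, minus strand), the brain form, was at 64.2, 47.7 and 28.6 CPM. ALDOC was highest in OLFM4-wild and lowest in the library labelled active, by -0.43 (-0.53 to -0.33) and -1.17 (-1.30 to -1.03) on the log2 scale. ALDOC took 7.94% of aldolase counts in OLFM4-wild, 4.63% in knockout and 4.18% in the library labelled active. Triosephosphate isomerase (TPI1; chr12:6867119-6870948, plus strand) was at 299.9, 495 and 233 CPM, highest in the knockout library. It was past 2-fold only between the knockout library and the library labelled active, by 1.09 (1.05 to 1.13; 0.85 with library totals).

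In the lower part, where ATP and NADH are made, GAPDH was at 2592 CPM in the OLFM4-wild library, 4157 in the knockout library and 2859 in the library labelled active. PGK1, which makes the first ATP of the pathway, was at 263, 383 and 249 CPM, and the mutase PGAM1 at 113, 194 and 100.3 CPM. Enolase 1 (ENO1) was at 1225, 2134 and 1231 CPM. These 4 enzymes were all highest in the knockout library, with log2 fold changes against wild of 0.68 for GAPDH, 0.54 for PGK1, 0.78 for PGAM1 and 0.80 for ENO1. Their range with library totals was 0.19 to 0.45. Against wild, the library labelled active differed by 0.14, -0.08, -0.17 and 0.01, the last with an interval of -0.02 to 0.03 and a sign that followed the scaling (-0.11 with totals). Pyruvate kinase (PKM) was at 1419, 1719 and 1102 CPM. Its sign between knockout and wild followed the scaling (0.28 with TMM, -0.08 with totals), and it was lower in the library labelled active by -0.36 (-0.39 to -0.34).

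Enolase 2 (ENO2; chr12:6913745-6923698, plus strand), the neuronal enolase and a hypoxia-inducible gene, differed in the other direction from ENO1. It had 233 counts in the OLFM4-wild library, 155 in the deeper knockout library and 98 in the library labelled active, that is 12.8, 3.02 and 4.10 CPM. OLFM4-wild alone was high. The log2 fold change was -2.08 (-2.39 to -1.79) in the knockout library and -1.64 (-2.00 to -1.30) in the library labelled active. ENO2 took 1.04% of enolase counts in OLFM4-wild (0.908 to 1.18), 0.141% in knockout (0.120 to 0.165) and 0.332% in the library labelled active (0.270 to 0.405).

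Lactate dehydrogenase tetramers are built from A subunits (LDHA), which favour making lactate, and B subunits (LDHB), which favour its oxidation. LDHA was at 655 CPM in the OLFM4-wild library, 559 in the knockout library and 679 in the library labelled active, which puts the knockout library lowest, by -0.23 (-0.26 to -0.20) against wild. LDHB (chr12:21635342-21757857, minus strand) was at 219.7, 494 and 325 CPM. It was lowest in OLFM4-wild and highest in the knockout library, with log2 fold changes of 1.17 (1.12 to 1.22; 0.82 with library totals) and 0.57 (0.51 to 0.62). Of the counts of both genes, LDHB took 25.1% in OLFM4-wild (24.4 to 25.8), 46.9% in knockout (46.5 to 47.3) and 32.4% in the library labelled active (31.8 to 33.0). These intervals, which cover counting error only, did not overlap.

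The monocarboxylate transporters SLC16A1 (MCT1) and SLC16A3 (MCT4) carry lactate across the plasma membrane, the latter typically outward from glycolytic cells. SLC16A1 was at 194, 268 and 226 CPM in the order wild, knockout, labelled active, with log2 fold changes of 0.47 and 0.22. SLC16A3 (chr17:82217934-82261129, plus strand) was at 50.2, 105 and 56.4 CPM, high in the knockout library alone. Its log2 fold change was 1.07 (0.97 to 1.17; 0.71 with library totals) in the knockout library and 0.17 (0.05 to 0.29) in the library labelled active. SLC16A3 took 20.6% of the counts of the pair in OLFM4-wild, 28.2% in knockout and 19.99% in the library labelled active. PDK1 was at 23.2, 22.9 and 29.0 CPM. The interval of its difference between knockout and wild spanned 0 (-0.02, interval -0.19 to 0.14), and it was higher in the library labelled active by 0.32 (0.14 to 0.50).

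**Figure D3:**
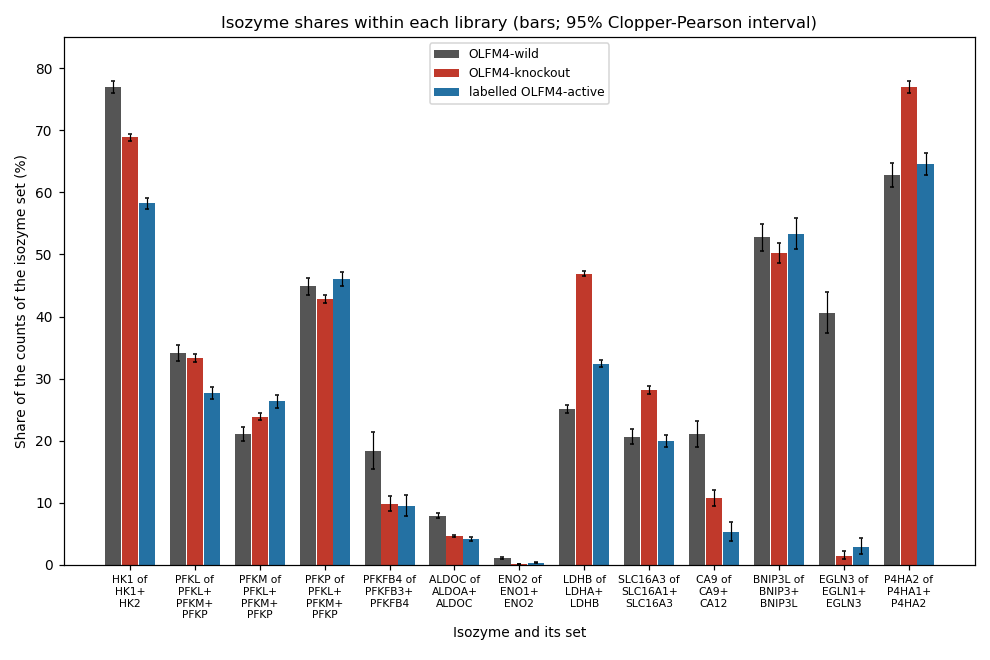
Share of summed counts (percent) taken by 1 isozyme of each pair or trio in each library, with 95% Clopper-Pearson intervals as bars. EGLN3 takes 40.5% of EGLN1 and EGLN3 counts in OLFM4-wild and 1.46% and 2.79% in the other libraries, and LDHB is highest, at 46.9%, in the knockout library.

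Among the hypoxia-response members, carbonic anhydrase 9 (CA9; chr9:35673928-35681159, plus strand), a cell-surface enzyme that buffers pH and a standard hypoxia marker, had 308 counts in OLFM4-wild, 232 in knockout and 50 in the library labelled active. These correspond to 17.0, 4.52 and 2.09 CPM, with OLFM4-wild highest and the library labelled active lowest. The log2 fold changes against wild were -1.91 (-2.16 to -1.66) and -3.01 (-3.48 to -2.58). The knockout library exceeded the library labelled active by 1.10 (0.66 to 1.58; 0.86 with library totals). Carbonic anhydrase 12 (CA12), a related surface enzyme, was at 63.7, 37.8 and 38.0 CPM, so that the knockout library and the library labelled active did not differ beyond counting error with TMM (-0.01, interval -0.12 to 0.11; -0.24 with totals). CA9 took 21.0% of the counts of the pair in OLFM4-wild, 10.7% in knockout and 5.22% in the library labelled active.

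The secreted factors VEGFA and ADM differed from wild in opposite directions. VEGFA, which drives vessel growth, was at 76.7 CPM in OLFM4-wild, 44.1 in knockout and 53.1 in the library labelled active, lower than wild by -0.80 (-0.90 to -0.70) and -0.53 (-0.64 to -0.42). ADM (chr11:10305073-10307397, plus strand), the vasodilator peptide adrenomedullin, was at 23.7, 83.8 and 52.8 CPM. It was lowest in OLFM4-wild, with log2 fold changes of 1.82 (1.68 to 1.97; 1.47 with library totals) and 1.15 (0.996 to 1.316). It was the only member past 2-fold higher in both comparisons with OLFM4-wild.

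NDRG1, a stress-responsive gene of growth arrest (chr8:133237175-133302022, minus strand), was at 1099.7 CPM in OLFM4-wild, 664 in knockout and 483 in the library labelled active. Its levels were highest in OLFM4-wild and its log2 fold changes were -0.73 (-0.75 to -0.70; -1.08 with library totals) and -1.19 (-1.22 to -1.15). The mitophagy receptors BNIP3 and BNIP3L, which mark mitochondria for removal, were at 51.3, 37.01 and 30.7 CPM and at 57.3, 37.4 and 35.1 CPM. Both were highest in OLFM4-wild, by -0.47 and -0.74 for BNIP3 and by -0.61 and -0.71 for BNIP3L when the knockout library and the library labelled active were set against it. BNIP3L took 52.7%, 50.3% and 53.3% of the counts of the pair, and these intervals overlapped.

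EGLN3, a prolyl hydroxylase that is itself induced by HIF and closes its negative feedback loop, showed the largest difference of all 37 members. The gene (chr14:33924227-34462774, minus strand) had 356 counts in the OLFM4-wild library, 19 in the knockout library and 19 in the library labelled active. Scaled for depth these were 19.6, 0.370 and 0.795 CPM, so that OLFM4-wild alone was high. EGLN3 was 51.6-fold lower in the knockout library and 24.0-fold lower in the library labelled active, with log2 fold changes of -5.69 (-6.48 to -5.06) and -4.59 (-5.37 to -3.96). Between the knockout library and the library labelled active the difference was -1.10 (-2.10 to -0.11). In 1 random thinning of every library to the smallest total, EGLN3 kept 356, 2 and 11 counts, and its log2 fold change in the knockout library was then -6.80 (-10.2 to -5.26). Thinned likewise, the knockout library against the library labelled active gave -1.96 (-5.44 to -0.025). EGLN1, the main oxygen sensor of the family, was at 28.7, 25.1 and 27.7 CPM and differed from wild by -0.20 (-0.35 to -0.05) and by -0.05 (-0.22 to 0.12). EGLN3 took 40.5% of the counts of EGLN1 and EGLN3 in OLFM4-wild (37.3 to 43.9), 1.46% in knockout (0.879 to 2.26) and 2.79% in the library labelled active (1.69 to 4.32).

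The remaining hypoxia-response members differed by less than 2-fold in every comparison with TMM. P4HA1 and P4HA2, the collagen prolyl 4-hydroxylase alpha subunits, were at 49.4, 29.8 and 39.9 CPM and at 83.4, 99.6 and 72.8 CPM. P4HA1 was lower than wild in the knockout library (-0.73), whereas the sign of P4HA2 there followed the scaling (0.26 with TMM, -0.10 with totals). P4HA2 took 62.8% of the counts of the pair in OLFM4-wild, 77.0% in knockout and 64.6% in the library labelled active. The histone demethylase KDM3A was at 36.6, 27.8 and 40.6 CPM, lowest in the knockout library (-0.40, interval -0.53 to -0.26). ANKRD37, an ankyrin-repeat HIF target, was at 7.65, 11.2 and 10.2 CPM and higher than wild in both (0.55, interval 0.28 to 0.83, and 0.41, interval 0.10 to 0.72). With library totals its values were 0.19 and 0.29, and in neither comparison did its interval stay above 0 under all 4 scalings.

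HIF1A, the oxygen-regulated alpha subunit itself, is known to be controlled mainly at the level of its protein. Its RNA was at 308 CPM in OLFM4-wild, 293 in knockout and 316 in the library labelled active, that is -0.07 (-0.12 to -0.03; -0.43 with totals) and 0.03 (-0.02 to 0.09) against wild, the latter changing sign with library totals (-0.08).

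**Figure D4:**
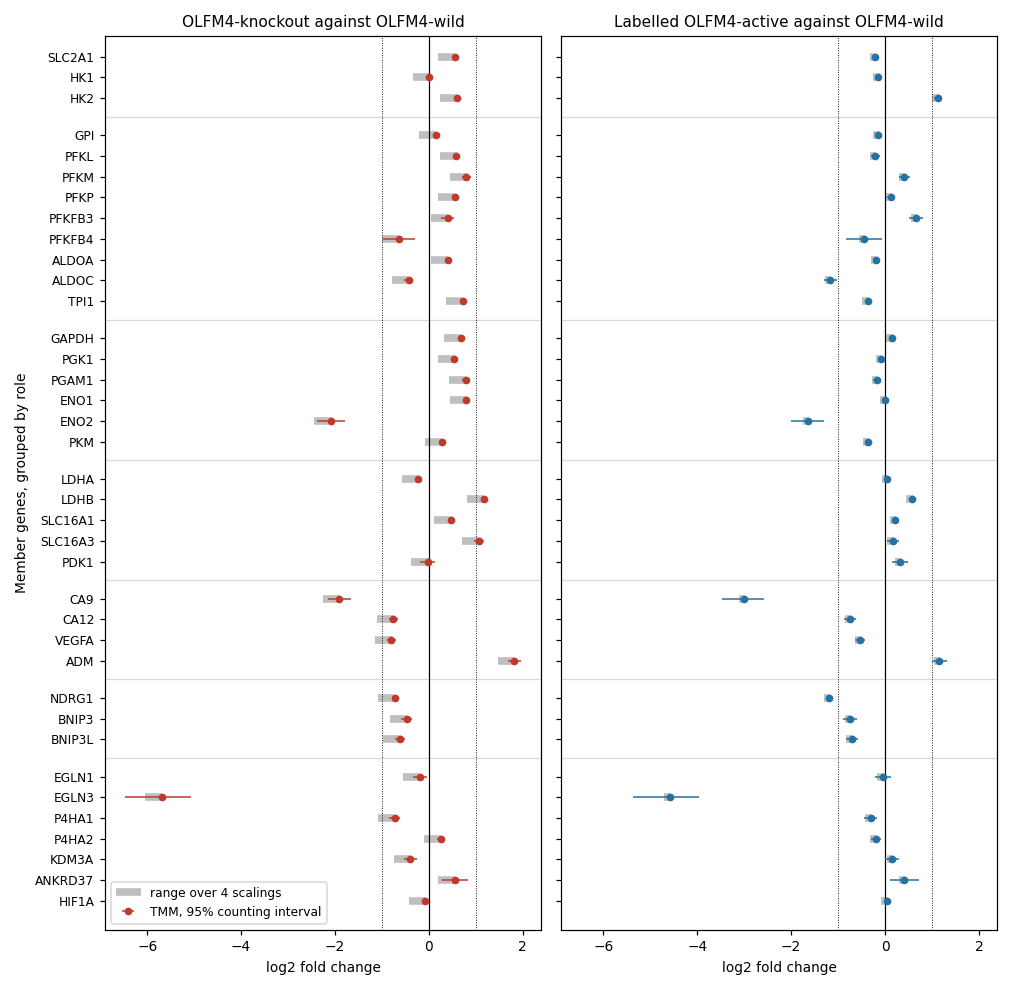
Log2 fold change of each member against OLFM4-wild, for knockout cells and for the library labelled active, with TMM scaling; lines are 95% intervals for counting error, grey bands the range over the 4 scalings, dotted lines 2-fold, and members are ordered by role. In the knockout library most glycolytic members lie right of 0 and most hypoxia-response members left of it, with EGLN3 at -5.69.

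A limit on several members is that their exons overlap genes on the opposite strand. Of the 37 members, 17 share exon bases with such a gene, and for 9 of them that gene held at least 10 counts per 100 counts of the member in at least 1 library. Over 95 noncoding genes lying wholly opposite exons of coding genes that had at least 1000 counts, counts per base were 1.06, 1.14 and 1.12 times those of the coding gene at the median in the 3 libraries, so that these counts did not separate the 2 strands. For GAPDH a gene within its exons (ENSG00000269968) held 51.3, 50.7 and 49.9 counts per 100 GAPDH counts, a ratio that was nearly level across libraries, and for ALDOC the corresponding values were 30.5, 29.5 and 26.9. CA9 shares 571 exon bases with ARHGEF39, which held 151, 299 and 716 counts per 100 CA9 counts in the order wild, knockout, labelled active. The log2 fold changes of ARHGEF39 against wild were -0.93 and -0.77. SLC16A3 shares 482 with CSNK1D, PFKM shares 516 with SENP1, ANKRD37 shares 909 with UFSP2 and PDK1 shares 445 with PDK1-AS1. In the same order of libraries, CSNK1D held 126.5, 72.5 and 139 counts per 100 counts of SLC16A3. SENP1 held 102, 60.5 and 86.7 per 100 counts of PFKM. UFSP2 held 375.5, 292 and 342 per 100 counts of ANKRD37, and PDK1-AS1 208, 348.5 and 257 per 100 of PDK1. Unlike those of GAPDH, these ratios were not level across libraries. The part of these partners in the values of CA9, SLC16A3, PFKM, ANKRD37, PDK1, P4HA1 and P4HA2 was not tested. Annotated pseudogenes are numerous for GAPDH (65) and BNIP3 (44), and reads that match them equally well were not counted, since only uniquely placed reads were used.

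A wider list of 91 genes around the same pathways was examined beside the members, of which 75 passed the filter of 1 CPM. In the knockout library 4 of these 75 were past 2-fold higher and 8 lower than in OLFM4-wild, beside 5.77% and 7.56% of all genes. In the library labelled active 4 were higher and 11 lower, beside 3.78% and 6.73% of all genes. Among them, the 28 expressed genes of the further hypoxia-response list differed from wild by -0.24 at the median (log2) in knockout and by -0.10 in the library labelled active, with 4 past 2-fold higher and 5 lower in the former and 3 higher and 8 lower in the latter, to be read against the same shares of all genes.

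The genes of that list past 2-fold lower in both comparisons included TMEM45A, STC2 and BHLHE40. TMEM45A, a transmembrane gene induced by hypoxia, was at 34.1 CPM in OLFM4-wild, 4.79 in knockout and 3.93 in the library labelled active (-2.83 and -3.11). STC2, a secreted glycoprotein hormone, was at 83.5, 22.1 and 31.6 CPM (-1.92 and -1.40), and the repressor BHLHE40 at 36.98, 12.1 and 17.2 CPM (-1.61 and -1.10). DDIT4, an inhibitor of mTOR complex 1 signalling, was at 352, 277 and 106 CPM (-0.34 and -1.74), so that the library labelled active was lowest. ZNF395 (60.7, 40.9 and 23.6 CPM), the collagen crosslinking enzyme LOX (73.8, 40.9 and 33.7 CPM) and CITED2, an inhibitor of HIF coactivator binding (49.4, 31.6 and 25.6 CPM), were each highest in OLFM4-wild. EP300, a coactivator recruited by HIF, was at 89.2, 28.9 and 52.3 CPM (-1.63 and -0.77).

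Other genes of the wider list were higher than in OLFM4-wild. PPP1R3C, which directs protein phosphatase 1 to glycogen, was at 54.7 CPM in OLFM4-wild, 121 in knockout and 153 in the library labelled active (1.15 and 1.49), the transferrin receptor TFRC at 112, 302 and 228 CPM (1.43 and 1.03), and the lipid-droplet protein PLIN2 at 11.4, 27.9 and 20.8 CPM (1.28 and 0.86). The hypoxia-response genes beyond the members were therefore not of 1 direction.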

How the data were processed

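RNA of 3 RWPE1 libraries (OLFM4-wild, OLFM4-knockout and labelled OLFM4-active) was prepared by the authors with a stranded, ribosomal-RNA-depleted total RNA kit. The deposited values are raw read counts per Ensembl gene, made by the authors with cutadapt, HISAT2 and featureCounts on uniquely mapped reads described as reversely stranded, and they are not normalized. Identifiers matched GENCODE 44 (GRCh38) for 98.1% of genes (56948), and symbols and coordinates were taken from it. Each library is 1 sample with no replicate.

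Libraries were scaled by TMM (edgeR 4.0.16 in R 4.3.3). The log2 fold change was computed with an offset of 0.5 counts, and 95% intervals are exact conditional Clopper-Pearson intervals (scipy 1.17.1), which cover counting error alone. Genes that averaged 1 CPM or more across libraries entered the background, and past 2-fold means a log2 fold change beyond 1 or -1. The floor is 3 counts. With 1 library per group no model was fitted and no p-value is given. The scaling alternatives were library totals, DESeq2 1.42.0 size factors and the upper quartile. The calculation was tested on simulated data. CPM per kb used the length of the canonical transcript. Promoter windows came from RefSeq.

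All 37 members are reported. Values in every library were given for members past 2-fold, for isozyme pairs and for HIF1A. Of the wider list, up to 12 genes averaging 10 CPM or more and the largest difference from OLFM4-wild were named. Some genes of the wider list are not reported here. The members and lists were chosen with earlier results of these data known.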

Additional observations from a re-analysis of the deposited data

How the results depend on the processing

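No paired analysis was possible because each group holds 1 library, and for the same reason no library could be left out. The member counts and medians depended on how the libraries were scaled. In the knockout against wild comparison, library totals left 1 member past 2-fold higher and 7 lower, and the median became -0.10; it was 0.17 with the upper quartile, 0.34 with a filter at a mean of 10 CPM and 0.17 with TMM over protein-coding genes. In the labelled-active against wild comparison the median became -0.25 with library totals, and 1 member stayed higher where the whole interval had to lie past 2-fold. In the knockout against labelled-active comparison, 0 members were past 2-fold higher with library totals and with the upper quartile and 1 where the whole interval had to be past it, which also left 0 lower. The median there was 0.052 with totals, 0.19 with the upper quartile, 0.40 with the higher filter and 0.23 with TMM over protein-coding genes. After thinning all libraries to the depth of the smallest, the isozyme shares that moved past their intervals were, in the knockout library, HK1 67.9%, PFKL 34.6%, PFKM 23.1%, CA9 12.2% and EGLN3 0.536%, and, in the library labelled active, PFKFB4 7.79%. The cause was not tested beyond the smaller number of counts that thinning leaves. EGLN3 has 19 counts in each of 2 libraries, and no replicate measures the spread between cultures for any member.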

Other observations

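Genes of the pentose phosphate pathway, which branches from glucose 6-phosphate and makes NADPH and ribose, were all expressed (7 of 7), with a log2 difference of 0.61 at the median between knockout and OLFM4-wild, which was 0.26 with library totals. Of the 7, 4 were higher and 0 lower under all 4 scalings, beside 32.5% and 42.6% of all genes. TKT was at 338 CPM in OLFM4-wild, 572 in knockout and 335 in the library labelled active and TALDO1 at 113, 173 and 115 CPM, and both were higher in the knockout library than in the others. RPIA was lowest in OLFM4-wild, at 4.13, 7.71 and 9.58 CPM.

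Among the other glucose transporters, SLC2A3 (GLUT3) was at 8.14 CPM in OLFM4-wild, 0.994 in knockout and 1.30 in the library labelled active, with log2 fold changes of -3.03 and -2.63. SLC2A12 was at 4.73, 1.36 and 1.42 CPM. Both were highest in OLFM4-wild, unlike SLC2A1, and they were picked out after their values were seen. PCK2, the mitochondrial form of the enzyme that makes phosphoenolpyruvate, was at 60.3, 44.5 and 98.3 CPM and was likewise picked out afterwards. The lactate dehydrogenase gene LDHC and the hexokinase gene HK3 stayed below 1 CPM in every library.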
